A study of Homo sapiens with 12 samples.

Results

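The genes described here are 10 genes of megakaryocytes and platelets: ITGA2B, ITGB3, GP1BA, GP1BB, GP9, PF4, PPBP, VWF, NRGN and THBS1. They were chosen by symbol, and every probe set paired with 1 of these symbols and no other was taken, which gave 22 probe sets of 9 genes among 22215 probe sets tested. ITGB3 had 7 probe sets, THBS1 5 and ITGA2B 4, and the remaining 6 genes had 1 each. The 2 probe sets paired with GP1BB were also paired with SEPTIN5 and a read-through transcript of both, so no value is given for GP1BB.

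Expression was measured on 12 Affymetrix arrays of K562 cells, an established human line taken from a chronic myeloid leukaemia in blast crisis, which the labels call an AML line. There were 4 groups of 3 arrays: CXXC5 overexpression (human CXXC5 in the pEGFP-C2 vector), CXXC5 knockdown (shRNA against CXXC5 in lentiviral pLKO), scrambled shRNA in lentiviral pLKO, and empty pEGFP-C2 vector. The vectors were introduced transiently by nucleofection and the shRNAs by stable infection, so the way of delivery and the shRNA go together in any comparison between the 2 control groups and cannot be told apart. All 4 groups were kept in serum-free medium with Wnt3a at 100 ng/ml and harvested at 8 h, so nothing here measures the response to Wnt3a. The knockdown labels name a pair of shRNA clones without assigning them to arrays. Whether replicates were separate cultures is not given in the sources used here, and p-values cover only the array-to-array spread, which may be technical. Overexpression was set against empty vector and knockdown against scrambled shRNA. Scrambled shRNA and knockdown were each also set against empty vector, and the knockdown effect was subtracted from the overexpression effect to give the difference of the effects. No probe set used here was paired with CXXC5, and its level was not analysed here.

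Platelets are shed by megakaryocytes, which make the platelet receptors and load alpha granules with adhesive proteins and chemokines. The products of ITGA2B and ITGB3 pair to form the fibrinogen receptor. GP1BA, GP1BB and GP9 encode parts of the receptor for von Willebrand factor, itself the product of VWF. PF4 and PPBP encode chemokines of the alpha granule, THBS1 encodes the matrix protein thrombospondin 1, and NRGN encodes neurogranin, a calmodulin-binding protein of neurons whose mRNA is also found in platelets. K562 cells carry erythroid features and are known for taking on megakaryocytic ones after phorbol ester treatment. CXXC5 is a zinc finger protein of a family that binds CpG dinucleotides.

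Because CpG is the sequence that family reads, the 250 bases before the start of the genes whose probe sets carry the results are shown, with each CG in capitals, on the strand of the gene and from RefSeq (GRCh38.p14). ITGA2B, none of whose probe sets passed the test, is shown beside them. Of the 10 genes 6 had an entry: ITGA2B, GP1BB, GP9, PPBP, NRGN and THBS1.
THBS1, chr15:39580829-39581078, plus strand: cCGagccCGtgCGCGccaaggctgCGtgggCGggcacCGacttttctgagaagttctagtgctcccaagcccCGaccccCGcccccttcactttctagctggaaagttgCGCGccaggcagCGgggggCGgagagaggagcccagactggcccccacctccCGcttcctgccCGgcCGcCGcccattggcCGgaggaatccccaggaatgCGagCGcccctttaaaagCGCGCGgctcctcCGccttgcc
NRGN, chr11:124739692-124739941, plus strand: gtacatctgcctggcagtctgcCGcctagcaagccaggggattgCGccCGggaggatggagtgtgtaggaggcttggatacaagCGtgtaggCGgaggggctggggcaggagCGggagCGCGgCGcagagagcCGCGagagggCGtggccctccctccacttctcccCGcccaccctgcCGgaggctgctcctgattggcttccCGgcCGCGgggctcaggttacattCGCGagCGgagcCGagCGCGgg
PPBP, chr4:73988191-73988440, minus strand: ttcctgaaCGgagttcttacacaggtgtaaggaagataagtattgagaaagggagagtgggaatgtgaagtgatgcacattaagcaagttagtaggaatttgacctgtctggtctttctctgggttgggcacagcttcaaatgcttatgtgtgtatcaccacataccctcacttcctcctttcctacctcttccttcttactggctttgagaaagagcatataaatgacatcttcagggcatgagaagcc
ITGA2B, chr17:44389650-44389899, minus strand: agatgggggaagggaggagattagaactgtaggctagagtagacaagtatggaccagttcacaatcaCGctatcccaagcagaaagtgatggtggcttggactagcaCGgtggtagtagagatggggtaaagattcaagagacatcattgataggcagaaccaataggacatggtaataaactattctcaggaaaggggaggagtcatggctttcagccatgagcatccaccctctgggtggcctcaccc
THBS1 held 24 CG and NRGN 23, numbers reached by 23.7% and 25.8% of 35116 promoters of the same length, whose median was 11. PPBP held 1 CG and ITGA2B 2, which 93.9% and 85.3% of promoters reached. CG reads the same on both strands. A binding motif of the GATA factors (AGATAA and TGATAA, as well as AGATAG and also TGATAG, each on either strand and without a CG) was present in ITGA2B, PPBP and GP1BB, against 22.3% of all promoters. It began 102 bases before the start in ITGA2B and 217 in PPBP. These counts describe letters, not bound sites.

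The values are log2 expression values, and brightness depends on the probes, so ranks among probe sets are only a rough guide to signal. By that guide 21 of the 22 probe sets had a mean below the median of all probe sets, from the 2.29th percentile for one ITGA2B probe set to the 49.2nd for PF4. NRGN lay at the 56.7th. As a check of the labelled line, the erythroid markers HBZ, an embryonic globin, and TFRC, the transferrin receptor, lay at the 97.9th and 99.1st percentile. Of the other measured erythroid markers, HBE1 lay at the 94.9th, ALAS2 at the 73.8th, EPOR at the 66th and AHSP at the 47.3rd. The lymphoid marker CD3D lay at the 92.9th and the other lymphoid markers at the 43.3rd or lower, so these ranks are a weak check. No detection calls were among the files, so presence of the platelet transcripts was not tested. A lower value cannot tell fewer cells of a kind from less RNA per cell. Scrambled shRNA replicate 3 stood apart in the 3' minus 5' difference of the GAPDH control, at 0.87 log2 against 0.227 to 0.335 on the other 11 arrays, and the calls it takes part in are given with and without it in most cases below.

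Over the 4 groups, 7 of the 22 probe sets differed in limma's moderated F test (adjusted p under 0.05 over all probe sets), against 27.5% of all probe sets, so the share was close to the background. The 7 were 4 of THBS1 and those of NRGN, PPBP and GP1BA. Adjusted p-values ran from 0.000666 for THBS1 201110_s_at to 0.0431 for PPBP. No probe set of ITGA2B or ITGB3 passed, nor did GP9, PF4 or VWF. With the 4 groups put in order of their means, some neighbours had no overlapping arrays. Overexpression lay above the rest at NRGN, knockdown lowest at PPBP and scrambled shRNA lowest at THBS1 201110_s_at. Knockdown lay above empty vector at GP1BA and THBS1 201109_s_at, and above overexpression at THBS1 201107_s_at. How often this happens over all probe sets was not counted, so it only describes these values. Below, rose and fell mean an adjusted p under 0.05 in limma's fit of all 12 arrays.

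THBS1 gave the largest differences among these genes, and they came from 1 of its 5 probe sets. At 201110_s_at the values were 6.36, 6.16 and 6.24 in knockdown arrays, against 5.31, 4.41 and 4.45 in scrambled shRNA arrays. They were 6.20, 6.04 and 5.93 in overexpression arrays, against 6.09, 6.07 and 5.81 in empty vector arrays. The scrambled shRNA arrays lay below all 9 others, while overexpression arrays overlapped both knockdown and empty vector arrays, and within the scrambled shRNA group replicate 1 was well above the other two. Knockdown minus scrambled shRNA was 1.53 (SE 0.193, 95% interval 1.11 to 1.95, 2.89-fold, adjusted p = 0.000574). Scrambled shRNA minus empty vector was -1.27 (SE 0.193, adjusted p = 0.000756), and knockdown minus empty vector was 0.26, with an interval of -0.16 to 0.68 (adjusted p = 0.473). Both of the first 2 comparisons use the scrambled shRNA arrays, so they are not independent. Without scrambled shRNA replicate 3 the first was 1.39 (adjusted p = 0.00353) and the second -1.13 (adjusted p = 0.00451).

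**Figure D1:**
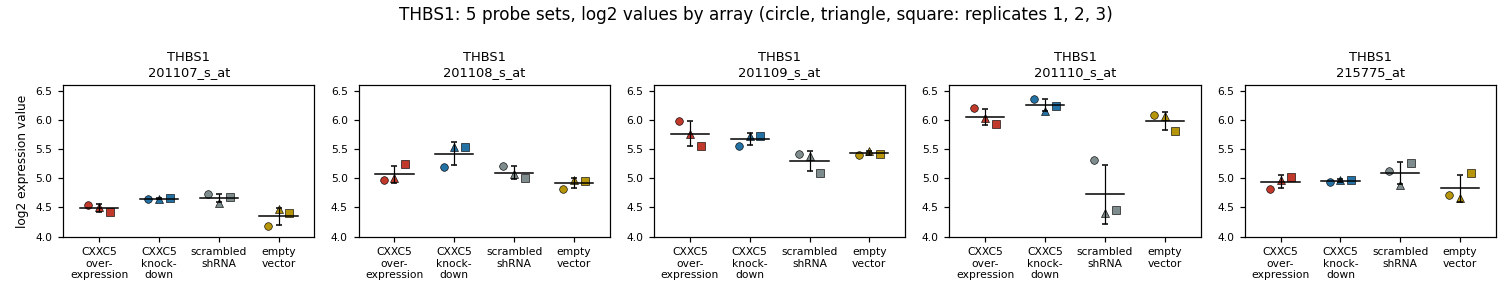
Log2 expression values of the 5 THBS1 probe sets (vertical axis, same range in each panel) in the 4 groups; circles, triangles and squares are replicates 1, 2 and 3, the line is the mean and the bar the SD (n = 3). At 201110_s_at the scrambled shRNA arrays sit between 4.41 and 5.31 and the other 9 between 5.81 and 6.36, a gap the other 4 panels do not show.

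None of the other THBS1 probe sets had scrambled shRNA arrays so far below the rest, though another pair of them was also higher with knockdown. At 201109_s_at the values were 5.56, 5.73 and 5.73 in knockdown arrays, against 5.41, 5.38 and 5.10 in scrambled shRNA arrays, and 5.98, 5.76 and 5.56 in overexpression arrays, against 5.40, 5.47 and 5.42 in empty vector arrays. Here both groups with altered CXXC5 lay above both controls without overlap, yet the differences of 0.38 for knockdown (adjusted p = 0.0504) and 0.34 for overexpression (adjusted p = 0.121) did not pass. The knockdown difference passed after quantile normalization (0.41, adjusted p = 0.0423), with the trended robust prior (0.0486), with array weights (0.0223) and with the replicate number as a block (0.0437). It did not pass after median centring (0.0556) or with the 6 arrays fitted alone (0.0868). With single arrays left out adjusted p-values ran from 0.0307 to 0.159, the highest without scrambled shRNA replicate 3 (difference 0.28). At 201108_s_at knockdown minus scrambled shRNA was 0.32 (adjusted p = 0.0804), and it passed after quantile normalization (0.36, adjusted p = 0.0323) and with array weights (0.0225). It did not pass with the 6 arrays fitted alone (0.154), and was 0.28 (adjusted p = 0.208) without scrambled shRNA replicate 3. Knockdown minus empty vector was 0.51 at this probe set and passed (means 5.42 ± 0.20 in knockdown and 4.91 ± 0.09 in empty vector arrays, SD, n = 3; adjusted p = 0.0307). That call ended without any of the 3 empty vector arrays or knockdown replicate 2 or 3, with adjusted p-values up to 0.108 over the arrays left out.

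At 201107_s_at scrambled shRNA arrays were higher than empty vector arrays, at 4.73, 4.58 and 4.68 against 4.19, 4.47 and 4.40 (difference 0.31, adjusted p = 0.013), which is the direction opposite to 201110_s_at. Without scrambled shRNA replicate 3 it was 0.30 (adjusted p = 0.0343). Knockdown minus scrambled shRNA at the same probe set was -0.01 (95% interval -0.18 to 0.16). At 215775_at it was -0.14 (95% interval -0.39 to 0.12). Over the 5 probe sets, knockdown minus scrambled shRNA thus ran from -0.14 to 1.53, and scrambled shRNA minus empty vector from -1.27 to 0.31. Knockdown minus empty vector was above 0 at all 5, from 0.13 to 0.51, and overexpression minus empty vector at all 5, from 0.06 to 0.34. With the mean of the 5 probe sets as 1 value for the gene, scrambled shRNA minus empty vector was -0.13 (adjusted p = 0.213), while knockdown minus scrambled shRNA was 0.42 (adjusted p = 0.00324). The files do not say where in the transcript each probe set lies.

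The genes whose centred profile over the 12 arrays was nearest to that of 201110_s_at were SLC26A2, SSH1 and TRIM2, with root mean square differences of 0.291, 0.32 and 0.339 log2, against a spread of 0.646 of the THBS1 probe set around its own mean. For 201108_s_at they were OR7C1, LINC01558 and JAK3 (0.0842 to 0.104), and for 201107_s_at MYH11, VPREB1 and ALOX5 (0.0476 to 0.0755). Nearness was the only measure used to name these genes.

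PPBP, which encodes the precursor of a platelet neutrophil-attracting chemokine, was lowest in knockdown arrays. Its values were 3.17, 3.30 and 3.32 in knockdown arrays, against 3.65, 3.59 and 3.78 in scrambled shRNA arrays. They were 3.56, 3.52 and 3.92 in overexpression arrays, against 3.74, 3.43 and 3.50 in empty vector arrays. The knockdown arrays lay below all 9 others, and the other 3 groups overlapped. PPBP fell by 0.41 in knockdown against scrambled shRNA arrays (SE 0.113, 95% interval -0.66 to -0.16, adjusted p = 0.039). Against empty vector arrays the knockdown difference was -0.29 (adjusted p = 0.169). The PPBP probe set is dim, at the 9.13th percentile. Its knockdown call ended after quantile normalization (-0.38, adjusted p = 0.0523) and without any of the 6 arrays compared or empty vector replicate 3, with adjusted p-values up to 0.131; it was -0.36 (adjusted p = 0.124) without scrambled shRNA replicate 3. The nearest profiles were those of FCN1, KLHL5 and B3GAT1 (0.107 to 0.113 log2, against 0.207 of PPBP around its mean).

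PF4, the other platelet chemokine, had no such low knockdown arrays. It was 6.52, 6.68 and 6.52 in knockdown arrays, against 6.50, 6.80 and 6.50 in scrambled shRNA arrays, and 6.35, 6.66 and 7.01 in overexpression arrays, against 6.41, 6.66 and 6.68 in empty vector arrays. All 4 groups overlapped. The differences were -0.03 with knockdown (95% interval -0.35 to 0.29) and 0.09 with overexpression (95% interval -0.23 to 0.41). The PF4 and GP9 probe sets are of a kind that can also read related transcripts (suffix x), and PF4 has a near-identical neighbour, PF4V1, so its value is uncertain.

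NRGN was the single probe set of the 22 that rose with overexpression. Its values were 7.42, 7.38 and 7.37 in overexpression arrays, against 7.12, 7.16 and 7.19 in empty vector arrays. They were 7.23, 7.20 and 7.13 in knockdown arrays, against 7.04, 7.15 and 7.15 in scrambled shRNA arrays. The overexpression arrays lay above all 9 others, and the other groups overlapped. The rise was 0.24 (SE 0.0587, 95% interval 0.11 to 0.36, 1.18-fold, adjusted p = 0.0447), and the knockdown difference was 0.08 (95% interval -0.05 to 0.20). The call ended without any of the 6 arrays compared, without scrambled shRNA replicate 2 or without any knockdown array, where the difference stayed between 0.22 and 0.25 and adjusted p-values reached 0.138. It also ended with the replicate number as a block (adjusted p = 0.0634), with the trended robust prior (0.0873) and with the 6 arrays fitted alone (0.0816). Of 19 probe sets of 7 neuronal genes 0 passed by limma in the same comparison, and 0 had an unadjusted p under 0.05. The mean level of these genes was 5.51 to 5.63 in overexpression arrays, against 5.50 to 5.61 in empty vector arrays. The nearest profiles were those of PDE4DIP, NFASC and ORAI2 (0.0401 to 0.0489 log2, against 0.113 of NRGN around its mean).

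**Figure D2:**
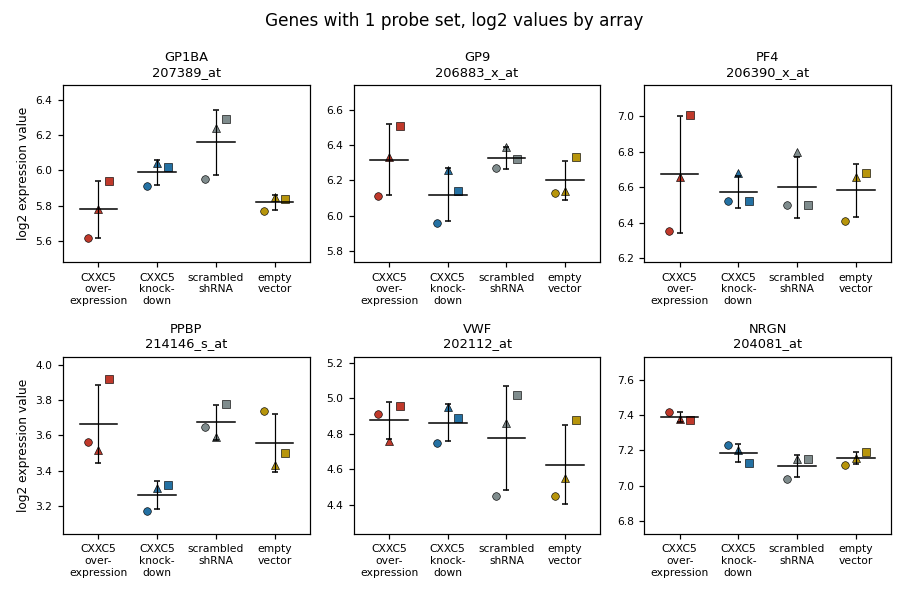
Log2 expression values (vertical axis) of the 6 genes with 1 probe set in the 4 groups; circles, triangles and squares are replicates 1, 2 and 3, the line is the mean and the bar the SD (n = 3). NRGN is highest in the 3 overexpression arrays (7.37 to 7.42), PPBP lowest in the 3 knockdown arrays (3.17 to 3.32), and the PF4 and VWF groups overlap.

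Of the receptor for von Willebrand factor, GP1BA differed between the control groups. This gene, which encodes the chain that binds the factor, was 5.95, 6.24 and 6.29 in scrambled shRNA arrays, against 5.77, 5.85 and 5.84 in empty vector arrays, without overlap. The difference was 0.34 (SE 0.1, adjusted p = 0.0246), and the call ended without any of the 3 empty vector arrays or scrambled shRNA replicate 2 or 3, with adjusted p-values up to 0.0879, reached without scrambled shRNA replicate 3 (difference 0.28). The knockdown arrays, at 5.91, 6.04 and 6.02, overlapped the scrambled shRNA arrays (difference -0.17, 95% interval -0.39 to 0.05). The overexpression arrays, at 5.62, 5.78 and 5.94, overlapped the empty vector arrays (difference -0.04, 95% interval -0.26 to 0.18). The nearest profiles to GP1BA were those of FBXW10B, PTGES and AOC4P (0.0511 to 0.0604 log2, against 0.184).

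GP9, a small chain of the same receptor, was 5.96, 6.26 and 6.14 in knockdown arrays, against 6.27, 6.39 and 6.32 in scrambled shRNA arrays, just without overlap (difference -0.21, 95% interval -0.44 to 0.03, adjusted p = 0.269). With overexpression GP9 was 6.11, 6.33 and 6.51, against 6.13, 6.14 and 6.33 in empty vector arrays (difference 0.11, 95% interval -0.12 to 0.35). VWF was 4.91, 4.76 and 4.96 in overexpression arrays, against 4.45, 4.55 and 4.88 in empty vector arrays, with overlap (difference 0.25, 95% interval -0.06 to 0.55, adjusted p = 0.42). It was 4.75, 4.95 and 4.89 in knockdown arrays, against 4.45, 4.86 and 5.02 in scrambled shRNA arrays (difference 0.09, 95% interval -0.22 to 0.39). VWF and THBS1 are also made by endothelial cells. Of 11 probe sets of 9 endothelial markers, 0 passed by limma between knockdown and scrambled shRNA arrays, with 1 at unadjusted p under 0.05. With overexpression 1 was higher, and against empty vector 2 were higher in knockdown and 2 in scrambled shRNA arrays. Their mean level was 5.30 to 5.43 in knockdown arrays, against 5.34 to 5.39 in scrambled shRNA arrays, and 5.19 to 5.40 in overexpression arrays, against 5.06 to 5.25 in empty vector arrays. Over the 12 arrays CDH5, a defining endothelial cadherin, ranged from 3.74 to 4.21, while TIE1, an endothelial receptor kinase, ranged from 4.08 to 5.35 and ENG, endoglin, from 6.47 to 7.53. Their part in the VWF and THBS1 values was not tested.

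No probe set of the fibrinogen receptor genes passed in any of the 5 comparisons by limma's fit of the values as deposited. An unadjusted p under 0.05 was seen for ITGB3 204628_s_at in 2 comparisons and for ITGA2B 206493_at in 1. The brightest ITGA2B probe set, 206493_at, was 6.33, 6.25 and 6.30 in overexpression arrays, against 6.25, 6.17 and 6.29 in empty vector arrays, and 6.48, 6.48 and 6.10 in knockdown arrays, against 6.39, 6.37 and 6.74 in scrambled shRNA arrays. The groups overlapped in both pairs. Over its 4 probe sets the overexpression difference ran from 0.06 to 0.19 and the knockdown difference from -0.15 to 0.01. All 4 were above 0 with overexpression and 1 of 4 with knockdown. At 216956_s_at, the probe set with the largest overexpression difference, the interval was -0.10 to 0.49. In scrambled shRNA minus empty vector 206493_at had no overlap between the groups and a difference of 0.26 (adjusted p = 0.108).

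The brightest ITGB3 probe set, 204626_s_at, was 6.05, 6.36 and 6.37 in overexpression arrays, against 5.72, 6.20 and 6.21 in empty vector arrays, with overlap. It was 6.05, 6.63 and 6.28 in knockdown arrays, against 6.30, 6.18 and 6.42 in scrambled shRNA arrays, also with overlap. Over the 7 ITGB3 probe sets the overexpression difference ran from -0.03 to 0.22, with 6 above 0, and the knockdown difference from -0.12 to 0.08, with 3 above 0. The probe set nearest to a call was 204628_s_at in scrambled shRNA minus empty vector, at 6.16, 6.08 and 6.20 against 5.92, 5.71 and 5.89 (difference 0.30, adjusted p = 0.0531). This difference passed without the lowest 40% of probe sets (adjusted p = 0.0352), with the 6 arrays fitted alone (0.0346), with array weights (0.0345) and with the replicate number as a block (0.0381). It did not pass after quantile normalization (0.0622), and was 0.28 (adjusted p = 0.134) without scrambled shRNA replicate 3. Knockdown minus empty vector was also 0.30 at 204628_s_at (adjusted p = 0.145), and with array weights it was 0.40 and passed (0.0249). The other 6 ITGB3 probe sets stood between -0.04 and 0.26 in scrambled shRNA minus empty vector.

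**Figure D3:**
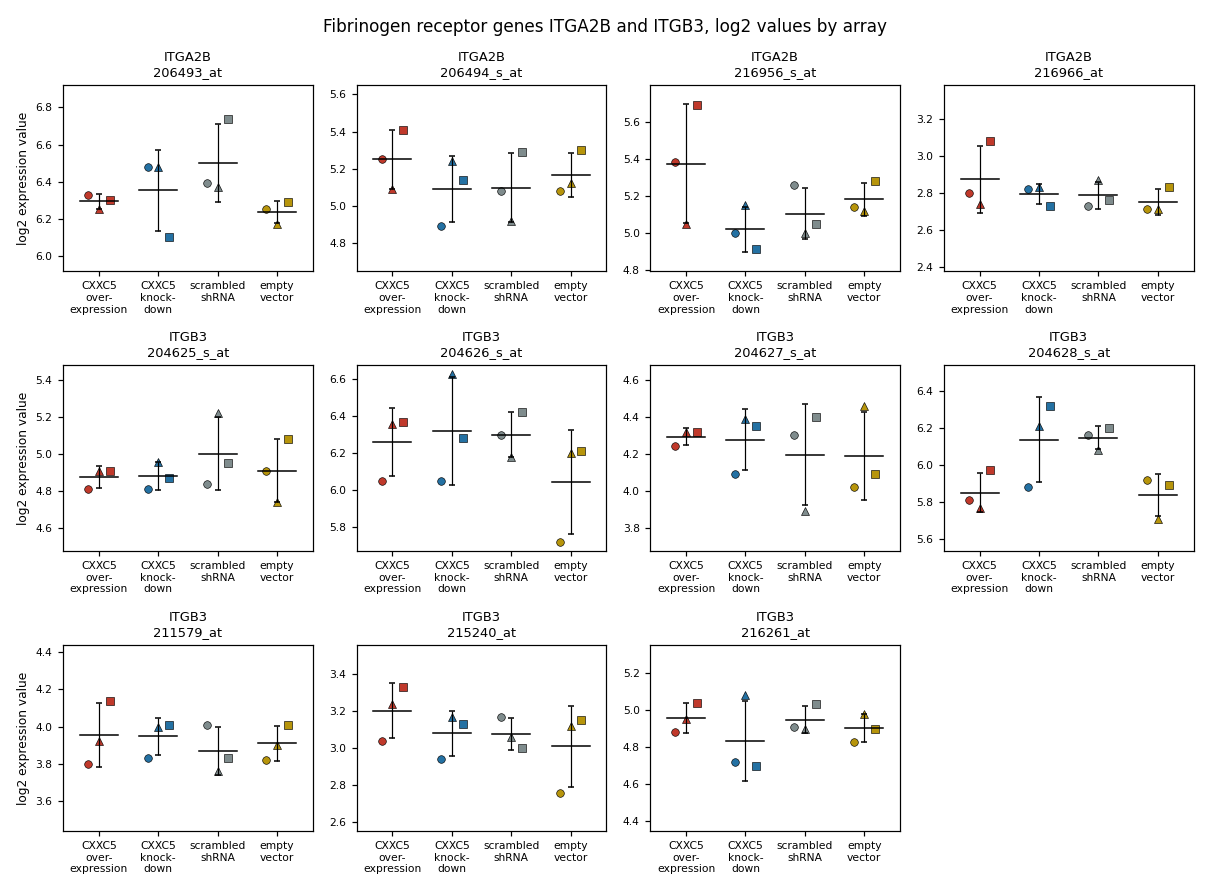
Log2 expression values (vertical axis, own range in each panel) of the 4 ITGA2B and 7 ITGB3 probe sets in the 4 groups; circles, triangles and squares are replicates 1, 2 and 3, the line is the mean and the bar the SD (n = 3). Overexpression arrays overlap empty vector arrays, and knockdown arrays overlap scrambled shRNA arrays, in all 11 panels; at ITGB3 204628_s_at the scrambled shRNA arrays (6.08 to 6.20) lie above the empty vector arrays (5.71 to 5.92).

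Counted over the 22 probe sets, 1 rose with overexpression and 0 fell by limma, where 2.27% of all probe sets rose and 1.92% fell. An unadjusted p under 0.05 was seen at 2 of the 22, against 17.2% of all. With knockdown against scrambled shRNA 1 rose and 1 fell, where 6.13% of all rose and 3.7% fell. In scrambled shRNA minus empty vector 2 were higher and 1 was lower, against 13.4% and 14.3% of all. In knockdown minus empty vector 1 rose and 0 fell, against 2.07% and 1.17% of all (3.24% in either direction). There 5 of the 22 had an unadjusted p under 0.05, against 20.9% of all. The difference of the effects passed at 1 probe set above 0, PPBP, and 1 below 0, THBS1 201110_s_at, against 5.82% and 9.1% of all.

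**Figure D4:**
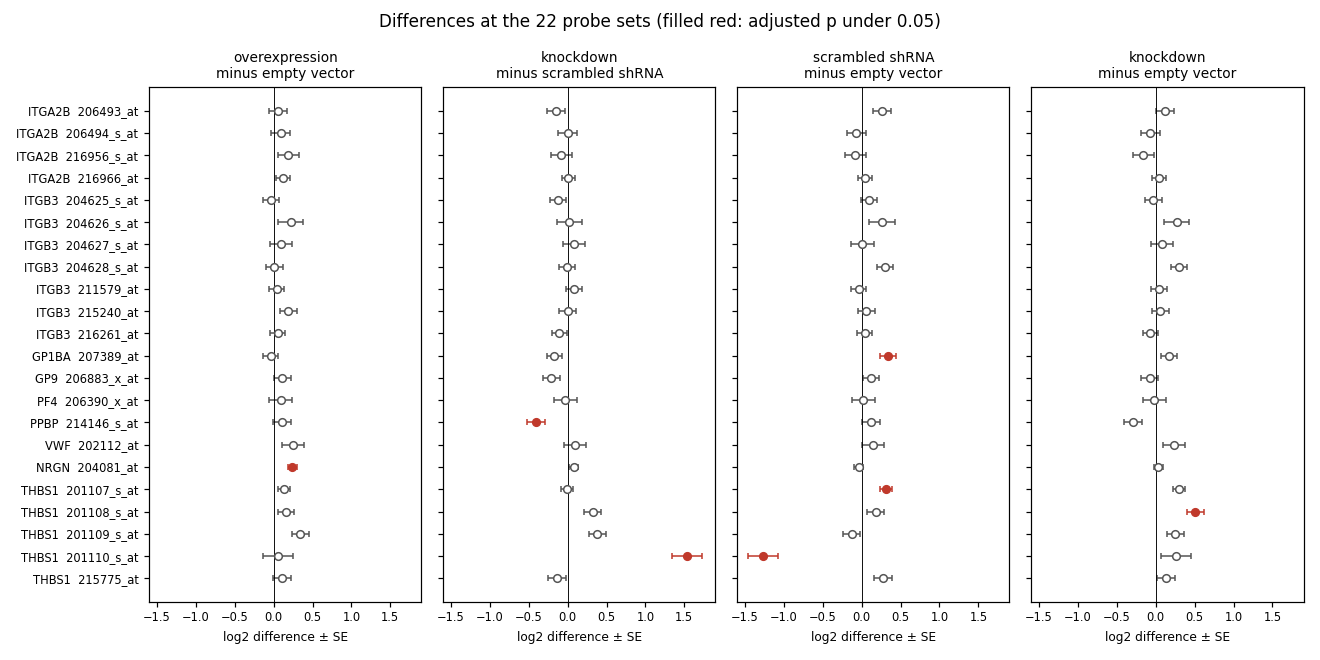
Log2 differences (horizontal axis) with their standard errors at the 22 probe sets in 4 comparisons; filled red points have an adjusted p under 0.05. THBS1 201110_s_at stands at 1.53 in knockdown minus scrambled shRNA and -1.27 in scrambled shRNA minus empty vector, and most other points lie near 0.

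Small differences against empty vector leaned one way. With overexpression 20 of the 22 were above 0, with a median of 0.111, against 49.7% and a median of -0.00096 over all probe sets, and 57.1% and 0.0222 over the 11107 probe sets below the median level. In scrambled shRNA minus empty vector 16 were above 0 (median 0.0786, against 0.0046 over all), and in knockdown minus empty vector 15 (median 0.0746, against 0.00436 over all). Over the probe sets below the median level, 57.6% were above 0 in the first (median 0.0443) and 50.9% in the second (median 0.00432). These 3 comparisons share the empty vector arrays. The 22 share their arrays and come from 9 genes, so they are not replicates. Overexpression replicate 3 was the highest of its group at 17 of the 22, against 43.5% of probe sets below the median level, and empty vector replicate 3 at 13, against 44.3%. Without overexpression replicate 3 alone 16 were above 0 and the median was 0.0447, and without empty vector replicate 1, the lowest of its group at 15 of the 22, the median was 0.0611. Without empty vector replicate 3 alone 20 were above 0 and the median was 0.155. With knockdown against scrambled shRNA 9 of 22 were above 0 (median -0.00519, against -0.00696 over all), and 13 after quantile normalization. Below the median level 38.2% were above 0 in this comparison (median -0.0435).

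Other genes of the lineage were read from 5 lists of 93 genes, of which 83 were measured by 151 probe sets. With overexpression 7 probe sets rose and 0 fell, 4.64% against 4.19% of all probe sets. With knockdown against scrambled shRNA 12 rose and 11 fell, 15.2% against 9.83% of all. In scrambled shRNA minus empty vector 29 were higher and 23 lower, 34.4% against 27.7%. The lists and the members were chosen with results of these arrays known, so these shares are descriptions.

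Among 21 probe sets of 13 transcription factors 1 rose and 0 fell with overexpression, and 3 rose and 2 fell with knockdown. GATA1 and GATA2, both needed for megakaryocytes, moved in opposite directions with knockdown. GATA1 rose by 0.47 (means 10.50 ± 0.09 in knockdown and 10.03 ± 0.18 in scrambled shRNA arrays, SD, n = 3; adjusted p = 0.00797). GATA2 fell by 0.34 at 209710_at (9.64 ± 0.05 in knockdown and 9.98 ± 0.05 in scrambled shRNA arrays; adjusted p = 0.00888), and its other 2 probe sets stood at -0.27 and -0.20. Without scrambled shRNA replicate 3 the knockdown differences were 0.37 for GATA1 (adjusted p = 0.0196) and -0.32 for GATA2 (adjusted p = 0.0252). With overexpression GATA2 rose by 0.30 at 209710_at (adjusted p = 0.0288), a call that ended without any overexpression array or empty vector replicate 2 or 3 (adjusted p up to 0.122). In scrambled shRNA minus empty vector GATA1 stood at -0.60 and GATA2 at 0.52 (-0.49 and 0.50 without scrambled shRNA replicate 3). No probe set of this list passed by limma in knockdown minus empty vector (3 at unadjusted p under 0.05, against 20.9% of all). NFE2, a regulator of platelet release, rose by 0.26 with knockdown (adjusted p = 0.0454), which did not hold with any array of the pair, any empty vector array or overexpression replicate 2 left out (adjusted p up to 0.149). Between the controls, scrambled shRNA minus empty vector, NFE2 stood at -0.30 (adjusted p = 0.0126).

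Of 34 probe sets of signalling genes 4 were higher with overexpression (11.8%, against 4.19% of all probe sets), and 5 were higher and 3 lower with knockdown (23.5%, against 9.83% of all and 23.8% of the transcription factor probe sets). LCP2, the adaptor SLP-76 downstream of the collagen receptor, rose by 0.54 at 205269_at with overexpression (means 8.09 ± 0.08 in overexpression and 7.55 ± 0.11 in empty vector arrays, SD, n = 3; adjusted p = 0.00102). It fell by 0.87 with knockdown (7.38 ± 0.01 in knockdown and 8.25 ± 0.02 in scrambled shRNA arrays; adjusted p = 2.06e-05), and its other probe set stood at 0.50 and -0.70. Without scrambled shRNA replicate 3 the knockdown difference was -0.86 (adjusted p = 0.000169). Scrambled shRNA arrays were 0.70 higher than empty vector arrays at 205269_at of LCP2, with and without that array. FYB1, an adaptor that binds SLP-76, rose by 0.38 with overexpression (adjusted p = 0.0178) and by 0.35 with knockdown (adjusted p = 0.0149) at 205285_s_at. The first call ended without overexpression replicate 1 or empty vector replicate 3 (adjusted p up to 0.0711), the second without knockdown replicate 1 or scrambled shRNA replicate 2 (up to 0.0587); without scrambled shRNA replicate 3 the second was 0.35 (adjusted p = 0.0352). PLCG2, a phospholipase of the same pathway, rose by 0.34 with knockdown (adjusted p = 0.0244), a call that ended without any knockdown array or scrambled shRNA replicate 2 (up to 0.0919). It was 0.38 without scrambled shRNA replicate 3 (adjusted p = 0.0269). For PLCG2 scrambled shRNA minus empty vector was -0.44 (adjusted p = 0.00297), and knockdown minus empty vector was -0.10 (adjusted p = 0.541).

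Among granule contents, 0 of 30 probe sets passed with overexpression by limma (8 at unadjusted p under 0.05, against 17.2% of all), and 3 fell with knockdown. PDGFA, a growth factor chain, fell by 1.07 (means 5.22 ± 0.17 in knockdown and 6.30 ± 0.13 in scrambled shRNA arrays, SD, n = 3; adjusted p = 0.000139), and its other probe set stood at -0.56. Without scrambled shRNA replicate 3 the PDGFA difference was -1.03 (adjusted p = 0.0011). PDGFB fell by 0.58 at 216061_x_at (adjusted p = 0.028), with its other 3 probe sets at -0.41 to -0.14. The PDGFB call ended without knockdown replicate 1 or 3 or scrambled shRNA replicate 3, with adjusted p-values up to 0.104, and the difference was -0.39 (adjusted p = 0.0649) without scrambled shRNA replicate 3. Between the controls, scrambled shRNA minus empty vector, PDGFA was 1.02 higher and PDGFB 0.93 higher at 204200_s_at (0.98 and 0.94 without scrambled shRNA replicate 3). Against empty vector the knockdown calls of this list lay at other probe sets and in the opposite direction: 4 of 30 rose and 0 fell (13.3%, against 3.24% of all). PDGFB was among them at 204200_s_at, with a rise of 0.53 (means 6.05 in knockdown and 5.52 in empty vector arrays, adjusted p = 0.0481). Without scrambled shRNA replicate 3 that adjusted p was 0.0528. PDGFA was not among them, at -0.05 (205463_s_at) and -0.33 (216867_s_at), nor was PDGFB 216061_x_at, at 0.28 (adjusted p = 0.31).

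Among 31 probe sets of receptors, 1 rose with overexpression, the ATP receptor P2RX1 at 0.27 (adjusted p = 0.0346, up to 0.132 without single arrays, of which 7 ended the call: overexpression replicates 1 and 3, knockdown replicates 2 and 3 and the 3 empty vector arrays), and 2 rose and 2 fell with knockdown. P2RX1 also rose in knockdown minus empty vector, by 0.34 (means 6.73 in knockdown and 6.39 in empty vector arrays, adjusted p = 0.0195). CD9, a tetraspanin, rose by 0.60 with knockdown (adjusted p = 0.0176), with 9.85 ± 0.36 in scrambled shRNA arrays; the difference was 0.40 without scrambled shRNA replicate 3 (adjusted p = 0.0126), and the call ended without knockdown replicate 1 or 3 (adjusted p up to 0.0543). CD36, a scavenger receptor, rose by 0.31 at 1 probe set (adjusted p = 0.0408), with its other 2 at -0.22 and 0.18; 7 single arrays ended the call (the 3 knockdown arrays, scrambled shRNA replicates 2 and 3, overexpression replicate 2 and empty vector replicate 2; adjusted p up to 0.124). TBXA2R, the thromboxane receptor, fell by 0.38 and 0.33 at a pair of its 4 probe sets, the others reaching -0.07, and the values were -0.33 and -0.29 without scrambled shRNA replicate 3 (adjusted p = 0.0292 and 0.0354). Between the controls, scrambled shRNA minus empty vector, TBXA2R stood at 0.61 and 0.45 at the same pair (adjusted p = 0.00022 and 0.000931), and at 336_at the mean was 9.86 in knockdown, 10.23 in scrambled shRNA and 9.62 in empty vector arrays. Of 35 cytoskeletal and platelet biogenesis probe sets, DIAPH1, a formin, rose by 0.49 at 209190_s_at with overexpression (adjusted p = 0.002) and fell by 0.30 with knockdown (adjusted p = 0.0208). Its other 2 probe sets stood at 0.15 and 0.40 with overexpression and at -0.35 and -0.04 with knockdown. At 209190_s_at scrambled shRNA minus empty vector was 0.44 (adjusted p = 0.00105), and knockdown minus empty vector was 0.14 (adjusted p = 0.272). The knockdown call ended without knockdown replicate 1 or 3 or scrambled shRNA replicate 1 or 2 (adjusted p up to 0.076), and it was -0.33 (adjusted p = 0.0205) without scrambled shRNA replicate 3. TPM1, a tropomyosin, rose by 0.32 and 0.31 with knockdown at a pair of its 4 probe sets, and the values were 0.31 and 0.35 without scrambled shRNA replicate 3. At the same pair scrambled shRNA minus empty vector was -0.25 and -0.22 (adjusted p = 0.0118 and 0.026). Knockdown minus empty vector was 0.07 and 0.09 there (adjusted p = 0.531 and 0.468).

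**Figure D5:**
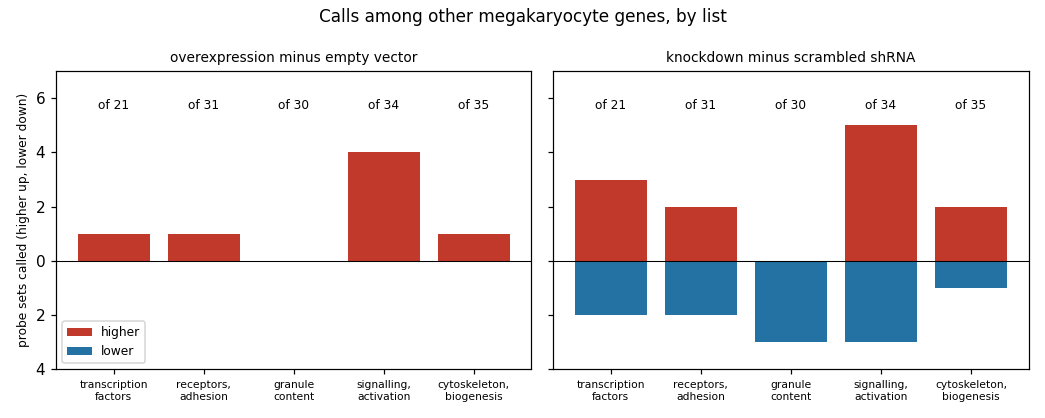
Number of probe sets with an adjusted p under 0.05 (vertical axis, higher above the line and lower below it) in the 5 lists of other megakaryocyte genes, in overexpression minus empty vector (left) and knockdown minus scrambled shRNA (right); the number above each bar is how many probe sets were tested. Signalling genes have 4 calls of 34 on the left and 8 of 34 on the right, and transcription factors 1 of 21 and 5 of 21.

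Erythroid markers, set beside these lists as the identity of K562, were highest in scrambled shRNA arrays. Over 6 genes the mean level of an array was 9.91 to 10.02 in knockdown arrays, against 10.32 to 10.46 in scrambled shRNA arrays, and 9.92 to 9.98 in overexpression arrays, against 9.86 to 9.91 in empty vector arrays. Of their 12 probe sets 0 rose and 5 fell with knockdown against scrambled shRNA by limma, where 3.7% of all probe sets fell. At unadjusted p under 0.05 there were 7, against 24.5% of all. With overexpression 3 rose and 1 fell (33.3%, against 4.19% of all). Whether this shift has a part in the differences of the megakaryocyte genes that use the scrambled shRNA arrays was not tested.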

How the data were processed

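RNA from K562 cells in 4 groups of 3 samples was measured on an Affymetrix 3' array. The authors deposited log2 values made with Affymetrix Expression Console, per the submitters' processing notes; the sources used here do not give its version or its background and summary methods. That the values are log2 was inferred from their range, 2.067 to 14.45, and array medians of 6.646 to 6.711. No further normalization was applied. Of 22277 probe sets 62 controls were left out. Names came from the platform annotation: 19064 probe sets had 1 symbol, 1043 several and 2108 none, and 19052 of the first were matched to RefSeq by gene ID.

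All 22215 probe sets were fitted with limma 3.58.1 (R 4.3.3; lmFit, eBayes, 1 coefficient per group, 8 residual degrees of freedom), and p-values were adjusted by Benjamini-Hochberg over all of them in each comparison; a call is an adjusted p under 0.05. The number of arrays limits the precision. On simulated data for overexpression minus empty vector the fit recovered 16% of probe sets changed by 0.3 log2, 82% of those changed by 0.6 and 100% of those changed by 1, and called 10 unchanged ones. Only a small part of the probe sets was changed in that simulation, and the other comparisons were not simulated. Alternatives covered scaling, a filter on the lowest 40%, 1 value per gene, the arrays fitted, the prior, array weights, the replicate number as a block, the threshold and each array left out.

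The members and lists were chosen with earlier results of these data known. All members were described. In each list, at most the 2 called probe sets with the largest difference in each direction and comparison could be named. As profiles like a called member, the 3 probe sets of other genes with the smallest root mean square difference of log2 values centred over the 12 arrays were named. Endothelial and neuronal markers were read as other sources of VWF, THBS1 and NRGN; lymphoid and fibroblast markers are given in the closing section.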

Additional observations from a re-analysis of the deposited data

Results flagged for a closer look

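At 2 of the 22 probe sets the effect of overexpression (against empty vector) and that of knockdown (against scrambled shRNA) differed, by limma's test of the difference itself, against 14.9% of all probe sets. The difference of the effects was -1.47 at THBS1 201110_s_at (0.06 with overexpression and 1.53 with knockdown, adjusted p = 0.00351), and it was -1.33 (adjusted p = 0.00986) without scrambled shRNA replicate 3. It was 0.52 at PPBP (0.11 and -0.41, adjusted p = 0.0467), and this call ended without overexpression replicate 3, any scrambled shRNA or knockdown array, or empty vector replicate 2 or 3, with adjusted p-values up to 0.114. Scrambled shRNA minus empty vector was -1.27 at THBS1 201110_s_at (adjusted p = 0.000756) and 0.12 at PPBP (95% interval -0.13 to 0.36).

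Among the other megakaryocyte genes the difference of the effects passed at 19 probe sets above 0 and 12 below 0 of 151 (20.5%, against 14.9% of all). Of the probe sets named for either effect 15 passed. They were named because an effect was called, and the difference uses the same arrays, so their passing is no separate support. P2RX1, CD36 206488_s_at and FYB1 205285_s_at, named in the same way, did not pass by limma (adjusted p = 0.0645, 0.0691 and 0.895). The difference of the effects was 1.41 at LCP2 205269_at and 1.20 at 205270_s_at, 1.34 at PDGFA, 0.79 at DIAPH1, 0.72 at PDGFB 216061_x_at, 0.64 at GATA2 209710_at, 0.44 at GATA2 210358_x_at, 0.63 at TBXA2R 336_at and 0.47 at 207554_x_at. It was below 0 at GATA1 (-0.76), CD9 (-0.72), PLCG2 (-0.56), NFE2 (-0.36) and TPM1 (-0.53 at 210986_s_at and -0.40 at 210987_x_at). Adjusted p-values of the 15 ran from 3.8e-06 for LCP2 205269_at to 0.0401 for NFE2. Without scrambled shRNA replicate 3 the difference ended for NFE2 (-0.30, adjusted p = 0.0669), and the other 14 passed, with CD9 at -0.51 and PDGFB at 0.53. LCP2 205269_at, GATA2 209710_at and DIAPH1 209190_s_at rose with overexpression against empty vector and fell with knockdown against scrambled shRNA. At these probe sets scrambled shRNA minus empty vector was 0.70, 0.52 and 0.44. Knockdown minus empty vector was -0.17, 0.19 and 0.14, and none of these passed by limma (adjusted p = 0.193, 0.152 and 0.272).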

How the results depend on the processing

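Of the member probe sets 1 was called with overexpression, 2 with knockdown against scrambled shRNA, 3 between the controls, 1 with knockdown against empty vector and 2 in the difference of the effects. Under the alternatives that keep each probe set no called value changed sign. With 1 value per gene, THBS1 in scrambled shRNA minus empty vector was -0.13 by the mean and -1.27 by the brightest probe set. Both are opposite in sign to the 0.31 called at 201107_s_at. With overexpression the count was 0 with the 6 arrays compared alone, with a trended robust prior and with the replicate block, 2 with array weights, and 0 to 1 with single arrays left out. With knockdown against scrambled shRNA it was 0 without the lowest 40% (which left 7 member probe sets), 4 with array weights, 4 at an adjusted p under 0.1, and 1 to 3 with single arrays left out. The filter took out PPBP (9.13th percentile) and every THBS1 probe set (201110_s_at at the 37.4th). Calls at these were therefore not tested under it in any comparison. Between the controls the count was 1 with the mean per gene and 2 to 4 with single arrays left out. With knockdown against empty vector it was 2 after median centring, 0 without the lowest 40%, 0 with the brightest probe set or the mean per gene, 0 with 6 arrays, 3 with array weights, 2 at 0.1, and 0 to 2 with single arrays left out. For the difference of the effects it was 1 after quantile normalization or median centring, with the mean per gene and with array weights, 0 without the lowest 40%, and 1 to 2 with single arrays left out; a fit of 6 arrays was not run there, since the difference uses all 12. The causes were not tested.

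Over all probe sets the counts were 931 with overexpression, 2184 with knockdown against scrambled shRNA, 6157 between the controls, 720 with knockdown against empty vector and 3316 in the difference of the effects. With overexpression they were 597 with 6 arrays, 1852 with array weights, 1557 at 0.1 and 410 to 1247 with single arrays left out. With knockdown against scrambled shRNA they were 1055 with 6 arrays, 3354 at 0.1 and 1308 to 2073. Between the controls they were 3768 and 3834 for the brightest and the mean per gene, which test fewer features, and 3975 to 6309. With knockdown against empty vector they were 447 with the mean per gene, 205 with 6 arrays, 1211 with the trended prior, 2340 with array weights, 1758 at 0.1 and 97 to 1122. For the difference of the effects single arrays gave 2449 to 3366.

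Replicate numbers 1 to 3 recur in the labels of every group. By a count of correlations over 0.1, arrays of the same number deviated together more often than others, but not by every measure. The strongest correlation was with the own number at 4 of 6 arrays for overexpression and empty vector. It was so at 2 of 6 arrays in each other pair of groups compared. Pairs of replicate 2 ran only from -0.107 to 0.000852. Of same-numbered pairs 8 of 18 had a correlation over 0.1 (range -0.107 to 0.379), against 5 of 36 pairs of other numbers (range -0.363 to 0.27). The main fit did not include the number, and whether it pairs the arrays was not settled. With the replicate block the member calls numbered 0 with overexpression (NRGN adjusted p = 0.0634), 3 with knockdown against scrambled shRNA, 4 between the controls, 1 with knockdown against empty vector and 2 in the difference of the effects. Most member probe sets are dim, and changes near 0.3 log2 were mostly missed on data simulated for overexpression minus empty vector. Recovery in the other comparisons was not simulated. A missing call is no sign of equal expression.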

Other observations

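Markers of 2 further cell types were read beside the members. Over 6 lymphoid genes the mean level of an array was 6.06 to 6.15 in overexpression, 6.11 to 6.20 in knockdown, 6.17 to 6.21 in scrambled shRNA and 5.97 to 6.08 in empty vector arrays. Of their 7 probe sets 1 was higher with overexpression and 1 lower with knockdown against scrambled shRNA. Of 16 probe sets of 6 fibroblast genes 0 passed by limma with overexpression (1 at unadjusted p under 0.05), and 1 rose and 0 fell with knockdown against scrambled shRNA. Their mean level was 5.15 to 5.31 in knockdown arrays, against 5.28 to 5.34 in scrambled shRNA arrays.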
